A study of Homo sapiens with 6 samples.

Results

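NR4A1, NR4A2, NR4A3, CSRNP1, IER2, IER3, IER5, IER5L, PHLDA1 and TRIB1 are early response genes, and they were read by symbol from the deposited count table, where all 10 names were found among 58735 genes. All 10 also passed the filter on low counts, which left 17743 genes. The table comes from RNA sequencing of Het1A, a line derived from normal human oesophageal epithelium and immortalised with the large T antigen of simian virus 40, in 2 groups of 3 libraries. In the bile acid group, the cells met KSFM acidified to pH 4.0 with 100 μM of 5 bile acids (glycocholic, taurocholic, glycodeoxycholic, glycochenodeoxycholic and deoxycholic acid) for 10 min on each of 5 days. The control group had 0.1% DMSO, and the labels do not say that its medium was acidified, so acid and bile acids cannot be told apart here. Serum was lowered to 1% in both groups 48 h ahead of the exposures and kept there, and RNA was taken 24 h after the last one.

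Early response genes are transcribed within minutes of a growth signal or stress, without new protein synthesis, mostly through kinase cascades that act on factors such as SRF with its ELK partners, CREB and NF-κB. Their mRNAs are short-lived and their products shape the slower response that follows. In epithelium the same genes answer to growth factors, wounding, acid and mechanical stress.

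Sequences of kinds often looked for in early response genes are shown first, namely AU-rich pentamers in the 3′ UTR, which are common in unstable mRNAs, and motifs before the transcription start. Of the 10 genes, 9 held at least 1 ATTTA pentamer in the 3′ UTR of their principal GENCODE transcript, against 70.0% of 13884 tested protein-coding genes. The longer site TTATTTATT was present in 3 of the 10, CSRNP1, IER5 and PHLDA1, against 8.6% of those genes. The densest stretch of 30 bases is given for 5 of them, written in DNA letters on the gene's strand with the pentamers in capitals:
IER5 (chr1:181092442-181092471, plus strand): ggtgtcttcctttATTTATTTATTTATTTA
CSRNP1 (chr3:39142889-39142918, minus strand): aacaattctctggATTTATTTAtttgtttt
PHLDA1 (chr12:76029797-76029826, minus strand): ttaatgtattttgATTTAtgattATTTAtt
IER3 (chr6:30743653-30743682, minus strand): gctcctaattaatATTTAtatgtATTTAtg
NR4A1 (chr12:52059409-52059438, plus strand): cATTTAtatttgtgtattttcctggATTTA

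In IER5 the 4 pentamers overlap in 1 run, whereas in IER3 and NR4A1 the 2 of each stretch lie apart. Per kilobase of 3′ UTR, IER3 had 8.14 pentamers, NR4A1 5.34, CSRNP1 4.17, IER5 3.32, NR4A3 3.31, NR4A2 3.05, PHLDA1 3.00, IER5L 2.33 and TRIB1 0.517, and IER2 had none in 1050 bases. The median was 3.18 in the 10 genes and 1.6 in all tested protein-coding genes. The density of IER3 exceeded that of 97.9% of the tested genes and that of NR4A1 92.3%. Exon numbers in these principal transcripts ran from 1 to 9. Those of NR4A1, NR4A2 and NR4A3 have 8, 8 and 9 exons, near the median of 9 in the tested genes. The chosen transcripts of IER2, IER5 and IER5L have 1 exon, as do those of 2.55% of the tested genes. With IER3 and PHLDA1, 5 of the 10 have at most 2 exons, against 7.48%. The IER2 gene as annotated runs from 13150415 to 13154908 with 3072 exonic bases, so it also holds bases outside exons.

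**Figure D1:**
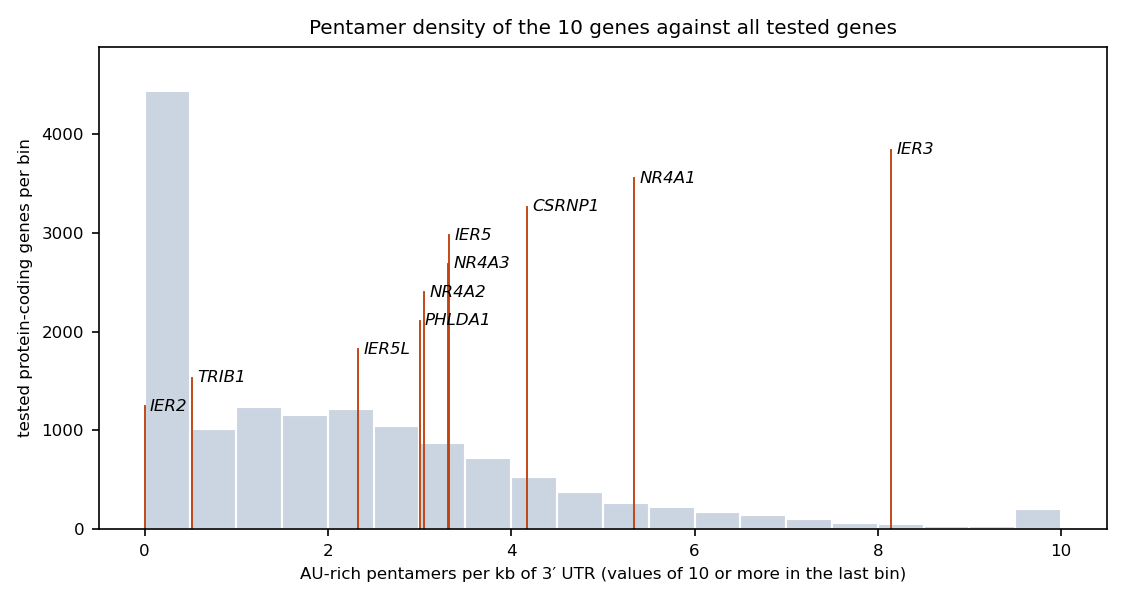
Density of AU-rich pentamers per kilobase of 3′ UTR in the principal transcript of each of the 10 genes (orange lines, heights only for legibility) over the distribution in 13884 tested protein-coding genes (grey bars). IER3 at 8.14 and NR4A1 at 5.34 lie in the upper tail, and IER2 at 0 and TRIB1 at 0.517 at the low end.

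Promoter sequence was available from RefSeq (GRCh38.p14) for 7 of the 10 genes with 9 start sites in all. The 250 bases before each start were searched on both strands for the CRE TGACGTCA, which CREB binds, its core TGACG, the AP-1 site TGANTCA, the NBRE AAAGGTCA bound by NR4A proteins, the heat shock element core GAANNTTC, the GC box GGGCGG, the CCAAT box CCAAT, the TATA box TATAAA, and the CArG box of SRF and the κB site of NF-κB. The CRE core lies within the full CRE, so those searches overlap. The CRE core was found before 3 of the 9 starts, in NR4A3, CSRNP1 and IER2, against 21.2% of 35116 promoters. The heat shock element core was found before 2 of the 9, those of IER5 and IER5L, against 5.78% of promoters, and both of these also had 2 CCAAT boxes, a motif in 32% of promoters. The GC box stood before 5 of the 9 starts, against 42.6% of promoters. These include PHLDA1, whose RefSeq start lies inside the annotated gene, so that all 250 bases searched are exonic in GENCODE. For NR4A1 the GC box stood before the start inside the annotated gene. The letters of the other 6 motifs were not in any of the 9 windows. Other spellings of a motif were not searched. The IER5 stretch below reads tatataag near its start, which the letters TATAAA do not match, so absence of a TATA box was not shown. For CSRNP1 the start is the one inside the annotated gene, and for NR4A3 the RefSeq start also lies inside it, so that the last 30 bases of that stretch are exonic in GENCODE. The stretches that end at the base before the start are given with the CRE core, the CCAAT box and the heat shock element core in capitals:
NR4A3 (chr9:99821735-99821884, plus strand): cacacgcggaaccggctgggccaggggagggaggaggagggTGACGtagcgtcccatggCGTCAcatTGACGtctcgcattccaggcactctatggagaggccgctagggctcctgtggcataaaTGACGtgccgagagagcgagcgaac
CSRNP1 (chr3:39153592-39153711, minus strand): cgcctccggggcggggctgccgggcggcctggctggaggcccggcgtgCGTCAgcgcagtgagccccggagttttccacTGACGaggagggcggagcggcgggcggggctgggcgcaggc
IER2 (chr19:13150261-13150410, plus strand): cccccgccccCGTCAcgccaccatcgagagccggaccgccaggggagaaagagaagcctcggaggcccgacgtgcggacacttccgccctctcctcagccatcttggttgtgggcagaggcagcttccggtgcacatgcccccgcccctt
IER5 (chr1:181088450-181088699, plus strand): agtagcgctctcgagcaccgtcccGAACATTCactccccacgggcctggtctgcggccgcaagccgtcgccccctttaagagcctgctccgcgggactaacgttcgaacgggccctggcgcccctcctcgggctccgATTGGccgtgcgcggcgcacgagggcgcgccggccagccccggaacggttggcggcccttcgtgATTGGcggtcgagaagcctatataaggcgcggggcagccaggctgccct
IER5L (chr9:129178262-129178511, minus strand): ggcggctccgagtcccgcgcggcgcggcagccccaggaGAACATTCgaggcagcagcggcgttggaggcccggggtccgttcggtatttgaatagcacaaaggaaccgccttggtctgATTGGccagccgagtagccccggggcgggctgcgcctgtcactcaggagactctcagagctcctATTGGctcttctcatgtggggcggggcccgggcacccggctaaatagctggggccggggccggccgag

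NR4A3 carried 4 copies of the CRE core, 109, 91, 83 and 25 bases before its start, the last of them within those exonic bases, CSRNP1 2 copies and IER2 1. IER5 and IER5L, a pair of related genes, spelled the heat shock element core with the same 8 letters, 226 and 212 bases before their starts.

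The libraries held 27008714 to 28497721 counts in the bile acid group and 21006677 to 26218597 in the control group, so that 3 counts in 1 library equal 0.105 to 0.143 CPM (counts scaled to a common library size), a limit for counting error only. Control library 2 stood apart. It had 19101 genes with a count, against 24174 to 25337 in the other 5 libraries, and its log2 CPM correlated with theirs at 0.893 to 0.93 across genes, while the other pairs lay between 0.974 and 0.985. Relative to controls 1 and 3, genes shorter than 2542.5 bp were higher in control 2 by a median of 0.548 on the log2 scale and those longer than 6949 bp differed by −0.578. Bile acid library 2 had a similar length trend. The Spearman correlation of gene length with the difference from controls 1 and 3 was −0.318 there and −0.33 in control 2. In the other libraries it lay between −0.0158 and 0.117. The part of control 2 and of the length trend in the results was not tested. Values without control 2 or with the trend removed are given where they move a result. Of 13 genes listed as basal squamous epithelial markers, 6 were each under a mean of 0.1 FPKM, namely KRT5, KRT14, KRT15, TP63, SOX2 and DSG3. The others on that list, KRT6A, KRT17, CDH1, EPCAM, ITGB4, DSP and PKP1, were not under that level. The simple epithelial keratins KRT7, KRT8, KRT18 and KRT19 summed to 270 to 289 FPKM in bile acid libraries and 185 to 497 FPKM in control libraries. Markers of fibroblasts, leukocytes and endothelium were under a mean of 0.1 FPKM for 4 of 6, 5 of 6 and 3 of 4 genes, with COL1A1, PDGFRB, CD14 and KDR as the exceptions.

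All 10 genes had a positive log2 fold change of bile acid over control libraries, with a median of 1.15, whereas 48.8% of all tested genes were positive and their median was −0.01. In 6 of them, NR4A1, CSRNP1, IER3, IER5, PHLDA1 and TRIB1, each bile acid library lay above each control library, a pattern found in 5.29% of tested genes. No member passed in the quasi-likelihood test of edgeR, where each had an adjusted p of 0.911 (Benjamini-Hochberg over 17743 genes) and 0% of the tested genes were called. At an unadjusted p under 0.05 edgeR placed 6 of the 10 higher in bile acid libraries, the same 6 genes, against 1.93% of tested genes. Neither DESeq2, which called 0.107% of genes as higher, nor limma-voom, which called 0%, called a member on this table. In the authors' deposited table IER3 alone of the 10 was called, with an adjusted p of 0.0443, among 0.129% of its genes that had an adjusted p. DESeq2 on the counts used here gave IER3 an adjusted p of 0.098. Reads recovered from the authors' normalized counts are another count set, with 28906632 against 27789590 in bile acid library 1. The source of the difference in p was not tested. The log2 fold change was above 1 in 6 of the 10, NR4A1, NR4A2, IER2, IER3, PHLDA1 and TRIB1, against 2.29% of tested genes. The 10 genes were put together with results of these data known, so these shares describe the libraries. Bulk RNA does not tell more expressing cells from more RNA per cell.

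The genes span a wide range of length-scaled levels, given here as the authors' FPKM (fragments scaled by gene length and library size). In bile acid libraries IER2 averaged 23.2 ± 15.6, IER5 19.9 ± 5.41 and IER3 19.7 ± 15.3 FPKM (SD, n = 3), with overlapping ranges. CSRNP1 followed at 8.67 ± 4.73, NR4A1 at 6.2 ± 8.04, IER5L at 4.11 ± 0.798, TRIB1 at 2.91 ± 1.85, PHLDA1 at 2.41 ± 1.71, NR4A2 at 0.615 ± 0.173 and NR4A3 at 0.493 ± 0.306 FPKM. In control libraries the order was IER5 at 11.6 ± 0.688, IER2 at 11.3 ± 12.2, IER3 at 4.71 ± 1.1, CSRNP1 at 4.68 ± 0.636, IER5L at 2.8 ± 0.704, TRIB1 at 0.846 ± 0.302, PHLDA1 at 0.751 ± 0.187, NR4A1 at 0.696 ± 0.451, NR4A3 at 0.301 ± 0.118 and NR4A2 at 0.259 ± 0.22 FPKM (SD, n = 3). NR4A1 thus stood 5th in bile acid libraries and 8th in control libraries. Among controls, IER5 lay above IER3, IER5L below CSRNP1 and above TRIB1, and NR4A2 and NR4A3 below PHLDA1 in every library. The neighbours IER3 and CSRNP1, TRIB1 and PHLDA1, and NR4A2 and NR4A3 overlapped in both groups.

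**Figure D2:**
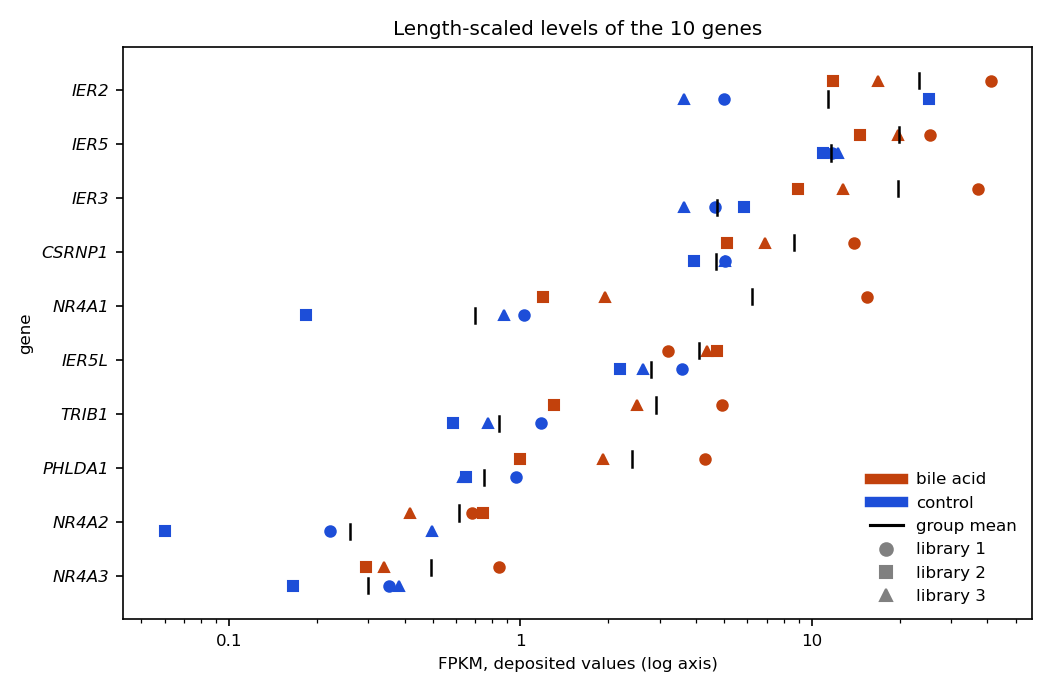
Deposited FPKM on a log axis for each of the 10 genes, sorted by the bile acid mean, with bile acid libraries (orange) drawn above control libraries (blue), symbols for library numbers and black bars for group means. The means run from 0.493 to 23.2 FPKM in bile acid libraries and from 0.259 to 11.6 FPKM in control libraries.

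The NR4A genes encode nuclear receptors without a known hormone ligand, whose activity follows from how much protein is made. NR4A1 (Nur77; chromosome 12, 52022832 to 52059507, plus strand, GRCh38) measured 133, 10.2 and 16.6 CPM in bile acid libraries 1 to 3 and 8.59, 1.57 and 7.33 CPM in control libraries 1 to 3. The groups did not overlap, bile acid library 1 stood far above all others, and bile acid library 2 lay close to control 1. The log2 fold change was 3.18 (SE 1.08, n = 3 per group), the largest of the 10, and it was 1.2 (SE 0.67) without bile acid library 1. Control 2 was the lowest of the 6. Without it the value was 2.75, and with the length trend removed it was 3.11.

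NR4A2 (Nurr1; chromosome 2, 156324432 to 156342348, minus strand) and NR4A3 (NOR1; chromosome 9, 99821855 to 99866891, plus strand) were the lowest of the 10 genes by FPKM. NR4A2 measured 3.17, 3.47 and 1.95 CPM in bile acid libraries and 1.01, 0.28 and 2.26 CPM in control libraries, with only 5 counts in control 2. Control 3 lay above bile acid library 3, so the groups overlapped. Its log2 fold change was 1.26 (SE 0.67), 0.83 without control 2 and 2.11 without control 3. NR4A3 measured 6.28, 2.19 and 2.5 CPM in bile acid libraries and 2.55, 1.23 and 2.77 CPM in control libraries. Bile acid library 1 alone stood above the controls. The log2 fold change of NR4A3 was 0.74 (SE 0.52), 0.10 (SE 0.48) without bile acid library 1 and 0.47 (SE 0.44) without control 2. NR4A1 made up 91%, 53.3% and 72% of the summed FPKM of the 3 receptors in bile acid libraries 1 to 3, against 64.2%, 44.7% and 49.9% in control libraries.

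IER2, IER5 and IER5L belong to 1 family of small nuclear proteins, while IER3 (IEX-1) is unrelated by sequence and acts in cell survival and ERK signalling. IER3 (chromosome 6, 30743199 to 30744554, minus strand) measured 59.4, 14.3 and 20.3 CPM in bile acid libraries and 7.22, 9.30 and 5.67 CPM in control libraries. All bile acid libraries were above all controls, and bile acid library 1 was again the highest. Its log2 fold change was 2.09 (SE 0.54), 1.23 (SE 0.31) without bile acid library 1 and 2.36 with the length trend removed. In the authors' deposited table the value was 2.11 (SE 0.515), called there as given above, and next came TRIB1 with an adjusted p of 0.136 and PHLDA1 with 0.244 in the authors' deposited table.

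IER5 (chromosome 1, 181088712 to 181092899, plus strand), which binds the phosphatase PP2A and through it the heat shock factor HSF1, measured 125, 71.8 and 96.7 CPM in bile acid libraries and 56.1, 53.6 and 58.9 CPM in control libraries. Relative to their mean, the 3 controls were closer together than for any of the other 9 genes, and control 2 lay beside controls 1 and 3. For IER5 the log2 fold change was 0.80 (SE 0.23), 0.59 (SE 0.23) without bile acid library 1 and 0.78 (SE 0.21) without control 2. It therefore had the smallest SE of the 10 genes and a moderate size.

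IER2 (chromosome 19, 13150415 to 13154908, plus strand), a nuclear protein linked to cell movement, measured 148, 42.5 and 60.6 CPM in bile acid libraries and 17.6, 91.5 and 12.8 CPM in control libraries. Control 2 lay above bile acid libraries 2 and 3, whereas controls 1 and 3 lay below all 3. The log2 fold change was 1.05 (SE 0.80) and depended on the library left out, with 2.47 (SE 0.46) without control 2, 0.36 without bile acid library 1, 0.63 without control 3 and 0.70 without control 1. Without control 2 each remaining bile acid library lay above each remaining control for 7 of the 10 genes, IER2 now among them, against 12.6% of tested genes. The adjusted p of IER2 in edgeR was then 0.141. With the length trend removed and all libraries kept, its log2 fold change was 1.27.

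IER5L (chromosome 9, 129175552 to 129178262, minus strand), a relative of IER5 whose role is less well described, measured 10.2, 15.1 and 13.9 CPM in bile acid libraries and 11.1, 7 and 8.18 CPM in control libraries. Bile acid library 1 was the lowest of its group here and lay below control 1. The log2 fold change was 0.58 (SE 0.27), the smallest of the 10, and 0.73 (SE 0.29) without bile acid library 1.

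**Figure D3:**
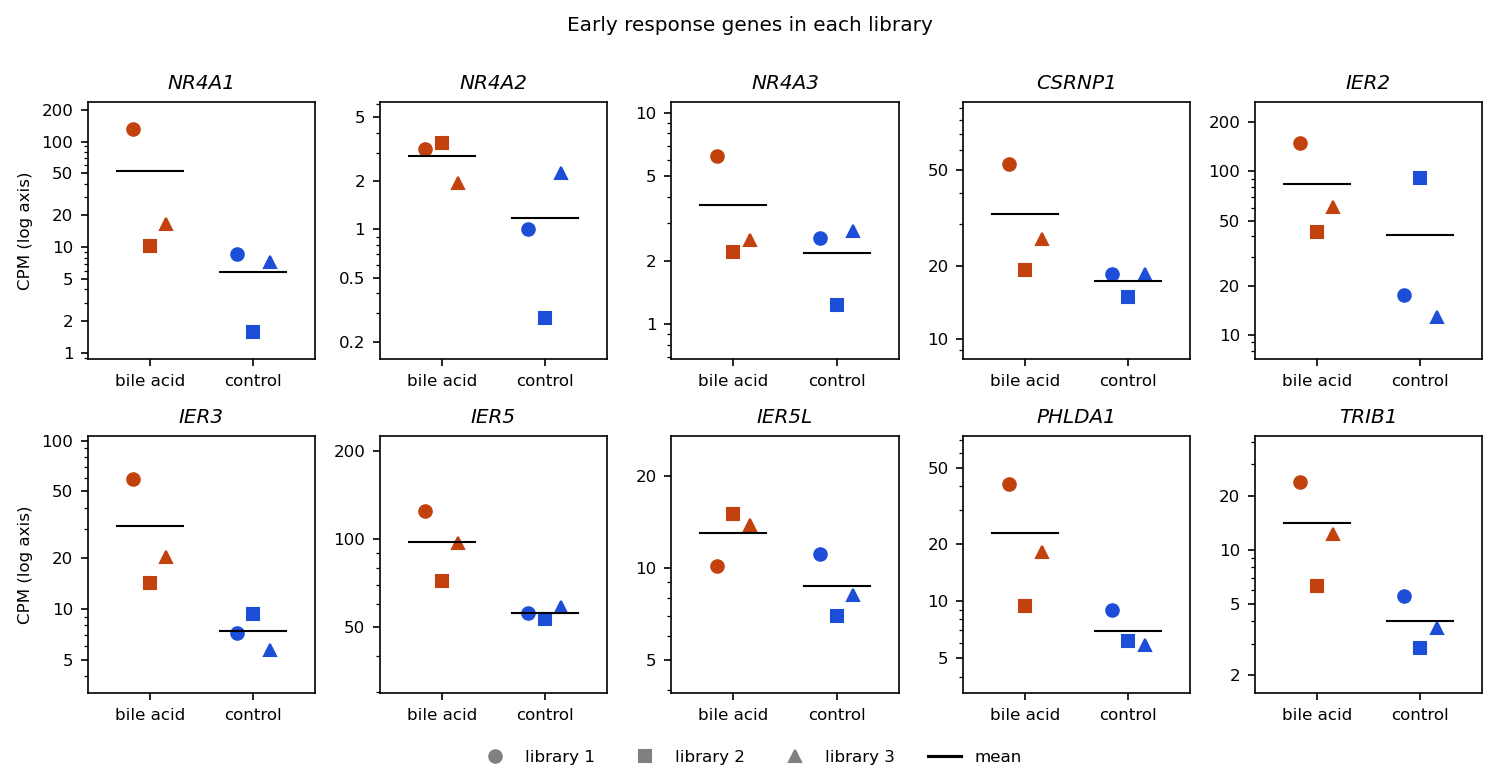
CPM (TMM-scaled, log axis, a separate range per panel) of each gene in the 3 bile acid libraries (orange, left) and the 3 control libraries (blue, right), with symbols for library numbers and bars for means. Control library 2 is the square that stands at 91.5 CPM for IER2 and at 1.57 CPM for NR4A1.

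CSRNP1, PHLDA1 and TRIB1 encode proteins of different kinds and are, like the others, early response genes. CSRNP1 (chromosome 3, 39141855 to 39154562, minus strand), a nuclear protein first found as a gene induced by axin, measured 53.0, 19.3 and 25.9 CPM in bile acid libraries and 18.5, 14.9 and 18.6 CPM in control libraries. Bile acid library 2 exceeded controls 1 and 3 by less than 1 CPM. The groups overlapped when only library size was used for scaling and when the length trend was removed. Its log2 fold change was 0.92 (SE 0.38) and 0.38 (SE 0.25) without bile acid library 1.

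PHLDA1 (TDAG51; chromosome 12, 76025447 to 76033932, minus strand), a pleckstrin homology protein linked to apoptosis and receptor signalling, measured 40.9, 9.43 and 18.1 CPM in bile acid libraries and 8.91, 6.16 and 5.88 CPM in control libraries. Its log2 fold change was 1.71 (SE 0.52) and 0.98 (SE 0.38) without bile acid library 1. TRIB1 (chromosome 8, 125430321 to 125438405, plus strand), a pseudokinase that brings C/EBPα to the ubiquitin ligase COP1, measured 24.0, 6.32 and 12.2 CPM in bile acid libraries and 5.57, 2.86 and 3.66 CPM in control libraries. For TRIB1 the log2 fold change was 1.8 (SE 0.51) and 1.2 (SE 0.43) without bile acid library 1. For both genes the groups did not overlap, and bile acid library 2 lay just above control 1.

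**Figure D4:**
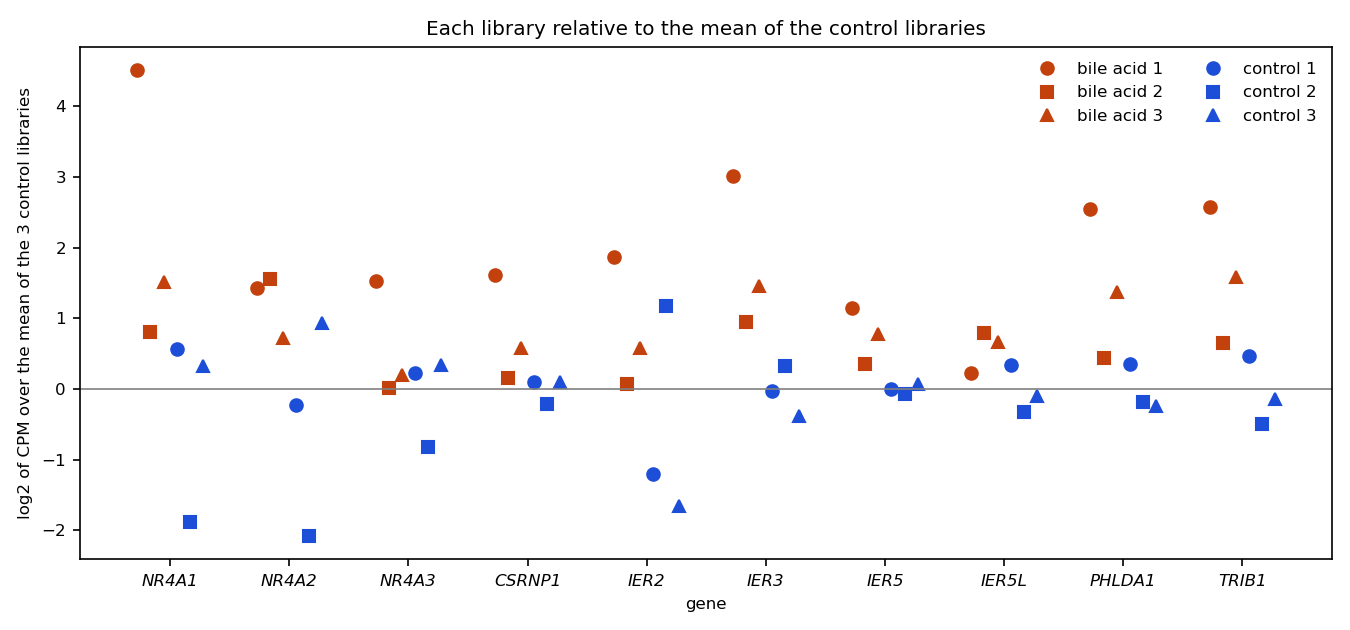
Log2 of the CPM of each library over the mean of the 3 control libraries, by gene, for bile acid (orange) and control (blue) libraries. Bile acid library 1 reaches 4.51 for NR4A1 and 3.01 for IER3 but 0.226 for IER5L, and control library 2 stands at −2.08 for NR4A2 and 1.17 for IER2.

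The bile acid libraries were ordered alike for most of these genes. Library 1 was the highest and library 2 the lowest of the 3 for 8 of the 10 genes, with NR4A2 and IER5L as the exceptions. The median over the 10 genes of the log2 ratio to the control mean was 1.74, 0.542 and 0.751 in bile acid libraries 1 to 3, against 0.159, −0.271 and −0.01 in control libraries. Control 2 was the lowest of the 6 libraries for 7 of the 10 genes. The log2 CPM of each gene was set against the mean profile of the other 9 over the 6 libraries, which share both groups. The correlation was 0.981 for TRIB1, 0.970 for IER5, 0.962 for PHLDA1, 0.948 for NR4A1, 0.944 for CSRNP1, 0.918 for IER3, 0.810 for NR4A3, 0.624 for NR4A2, 0.471 for IER2 and 0.408 for IER5L (Pearson, n = 6). IER2 and IER5L were thus the least like the rest.

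Leaving out bile acid library 1 lowered the median log2 fold change of the 10 genes to 0.86, with all 10 positive. In 7 of them each remaining bile acid library still lay above each control, against 8.1% of tested genes. Leaving out control 2 gave a median of 1.23. Without both libraries the median was 0.75, NR4A3 stood at −0.17, and IER2 was called (edgeR, log2 fold change 1.77, SE 0.21, adjusted p = 0.0167, 2 libraries per group), a setting added after the data were seen. In that setting 14 of 18004 tested genes were called. Each remaining bile acid library then lay above each remaining control for 8 of the 10 genes, against 20.4% of tested genes. The adjusted p of IER2 ranged from 0.0167 to 1 over all settings tried.

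**Figure D5:**
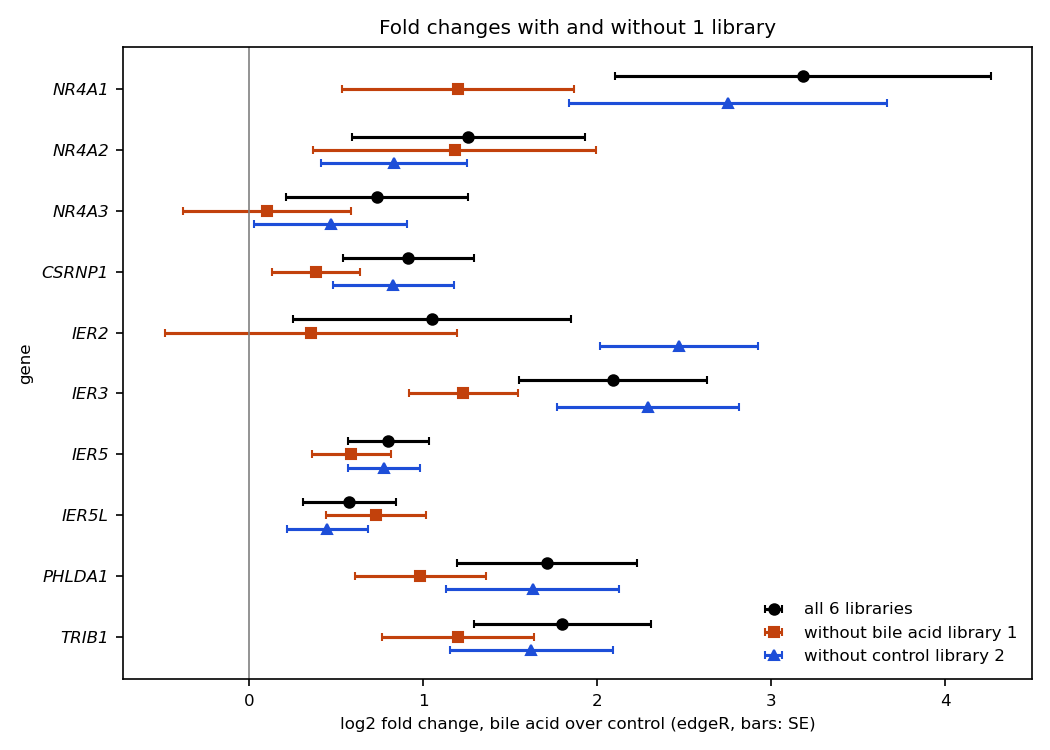
Log2 fold change of bile acid over control from edgeR with its standard error for each gene, with all 6 libraries (black), without bile acid library 1 (orange) and without control library 2 (blue). NR4A1 moves from 3.18 to 1.2 without bile acid library 1 and IER2 from 1.05 to 2.47 without control library 2, while IER5 stays between 0.59 and 0.80.

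Relatives of these genes lay nearer to the middle of all genes. Of 9 listed relatives and partner receptors 8 were tested, 4 with a positive and 4 with a negative log2 fold change and a median of 0.04, and 0 were called in edgeR. TRIB2, a second tribbles pseudokinase, had a log2 fold change of 1.58 (SE 0.74), PHLDA2 0.50 (SE 0.36) and RXRA, a receptor that pairs with NR4A1 and NR4A2, 0.21 (SE 0.19). Without bile acid library 1 the values were 1.01 for TRIB2, 0.03 for PHLDA2 and 0.11 for RXRA, and TRIB2 stood at 2.59 without control 1. Of 17 factors upstream of early response genes, all tested, 10 were positive and 7 negative with a median of 0.05, and 0 were called. The SRF partners ELK3 and ELK1 had log2 fold changes of 0.58 (SE 0.28) and 0.43 (SE 0.25), and CREM, a CREB relative, −0.32 (SE 0.27). Without control 2, CREM stood at −0.03 and ELK1 at 0.23.

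Of 9 proteins that bind or are acted on by the products of the 10 genes, 4 were positive and 5 negative with a median of −0.04, and 0 were called. MCL1, a survival protein, had a log2 fold change of 1.39 (SE 0.47) and BCL2, to which NR4A1 binds, 0.98 (SE 0.47). Without bile acid library 1 they stood at 0.64 and 0.43. HSF1 measured 115, 120 and 102 CPM in bile acid libraries and 116, 150 and 121 CPM in control libraries. A further 45 early response genes outside the 10 were listed, and the 43 tested were all positive, with a median of 0.96, 22 at an unadjusted p under 0.05 (1.93% of all tested genes were higher at that level) and 0 called in edgeR. DESeq2 called 7 of them as higher, against 0.107% of tested genes. The 5 with the smallest p were JUNB, FOS, DUSP1, MYC and ZFP36, with log2 fold changes of 2.22, 3.32, 1.61, 1.34 and 1.87, and each passed in DESeq2 with adjusted p-values of 0.00339, 0.000711, 0.0103, 0.0261 and 0.0251.

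The mean profile of the 10 genes was compared with 11386 other protein-coding genes of at least 5 CPM over the 6 libraries. Among the 8 most alike were KLF10, a zinc-finger factor (Pearson r 0.993), SLC16A10, an amino acid transporter (0.992), and SPRY2, an inhibitor of receptor signalling (0.990). They were followed by MIDN, a nuclear protein that delivers others to the proteasome (0.988), the RNA helicase DDX24 (0.988), the phosphate transporter SLC20A1 (0.988) and the RNase ZC3H12A (0.987). KLF10 measured 90, 45.9 and 54.8 CPM in bile acid libraries and 37.2, 32.1 and 34.9 CPM in control libraries, and its groups did not overlap.

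Exons of 6 of the 10 genes overlap an antisense gene, and the labels do not say whether reads were counted by strand. The partner of IER2, which covers 30.8% of its exonic bases, had 0 counts in every library. Of the 8 partners, the most counts were 41, for the partner of IER5L, which had 8, 41 and 22 counts in bile acid libraries and 31, 35 and 18 in control libraries. IER3-AS1 had at most 4 counts. Partner counts do not show how reads on shared bases were assigned, so an effect on the levels of the 10 genes was not tested.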

How the data were processed

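The authors deposited whole-number read counts per gene, FPKM per library and normalized counts, a signal in which each library's reads carry their own size factor (100% of 31530 genes' values whole within 0.001). Per the submitters' processing notes, HISAT2 2.0.5, featureCounts, DESeq2 and GRCh38 were used. The annotation is not given there, and the deposited coordinates equal those of GENCODE release 29 for 100% of genes. The deposited comparison gives, per the file headers, log2 fold changes with standard errors, p-values and adjusted p-values. The other values deposited with the tables, such as gene length in bases, served the length trend, and 2 value columns were not used here.

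The count test was edgeR 4.0.16 (R 4.3.3) with TMM scaling, filterByExpr and glmQLFTest, 3 bile acid against 3 control libraries, no covariate, adjusted over 17743 genes at 0.05, with SEs from the F statistic. It was checked on simulated counts. The labels call the libraries biological replicates without saying how cultures were separated. The p-values therefore set the group difference against the spread between these libraries, whatever separated them. Alternatives were DESeq2 1.42.0, limma-voom (limma 3.58.1), other scalings and filters, a lowess length correction (span 0.3), a replicate block, limma on log2(FPKM + 1) or log2(FPKM + 0.1), edgeR on the reads recovered from the signal, and each library left out. The reads recovered were whole for 100% of values, and edgeR called 0 genes on them.

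The members and lists were chosen with earlier results of these data known. Named besides the 10 genes were up to 3 per related list and 5 other early response genes with the smallest p, the 8 genes most alike in profile (1 of them is not reported here), and markers. 3′ UTRs come from GENCODE transcripts, taking the APPRIS principal one. Promoters were credited to RefSeq.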

Additional observations from a re-analysis of the deposited data

How the results depend on the processing

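Of 17743 tested genes, 0 were called in edgeR and 19 in DESeq2. With each library left out in turn 0 to 1 were called (1 of 18274 without control 2). Without both control 2 and bile acid library 1 the count was 14 of 18004. The number of the 10 genes called was 0 under every setting except the last, where it was 1 (IER2). Of 206 values of single genes under the alternatives 205 were positive. The exception was NR4A3 at −0.171 (SE 0.332) without both libraries, and the cause was not tested. NR4A3 ranged from 0.102 to 1.01 with each library left out. The median over the 10 genes ranged from 0.856 to 1.36 with each library left out. The number of the 10 genes with each bile acid library above each control then ranged from 6 to 7. That pattern was found in 7.1% to 13.6% of tested genes with a library left out, against 5.29% with all 6 libraries. NR4A2 and NR4A3 fell under the minimum mean of 0.5 FPKM, so limma on filtered FPKM gives values for 8 genes. With the replicate number as a block, the median was 1.51 and 0 genes were called. In edgeR 6.25% of tested genes had an unadjusted p under 0.05 with this block, against 3.31% without it. Deviations of same-numbered libraries correlated at 0.307, 0.382 and 0.0979 for numbers 1 to 3. The same-numbered control was the closest one for numbers 1 and 2, but not for number 3, where the highest correlation was 0.144. The labels state no pairing, and pairing was not tested. On log2(FPKM + 1) without a filter, limma gave a median of 0.772. Values were lower than in edgeR for all of the 10 genes but IER2, which stood at 1.24 against 1.05. The lower values were those of NR4A1 (1.52), NR4A2 (0.368), NR4A3 (0.184), PHLDA1 (0.848) and TRIB1 (0.989). CSRNP1 (0.667), IER3 (1.63), IER5 (0.696) and IER5L (0.43) were lower too. On log2(FPKM + 0.1) with the filter, NR4A1 stood at 2.35, PHLDA1 at 1.35 and TRIB1 at 1.53. The limma-voom values of these 3 genes were 2.5, 1.46 and 1.62. The cause of the lower values was not tested. Depth was least for NR4A2, with 5 counts in control 2.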
